A study of Mus musculus with 2 samples.

Results

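Myelin of the peripheral nerve is made by Schwann cells, and a muscle holds such nerve as the intramuscular branches of its motor and sensory axons. Schwann cell myelin genes were followed here through 8 members, Pmp22, Mbp, Prx, Mag, S100b, Sox10, Egr2 and Cnp, taken by name from 15622 annotated genes with at least 1 read. Every transcript model assigned to a member entered, which gave 38 models and 661 reads over both libraries. The reads came from long-read RNA sequencing of whole gastrocnemius, a calf muscle, of male mice aged 25 days. Both libraries belong to 1 group, the strain B6CASTF1/J, an F1 hybrid of C57BL/6J and CAST/EiJ, with no treatment or mutation named in the labels and 2 µg of RNA per library. The labels number them as biological replicates 1 and 2 and give different animal numbers, but cite 1 donor record for both. The same pair of sample names also stands in the description of both libraries. The RNA is that of whole muscle, so a smaller number of Schwann cells and less RNA per Schwann cell cannot be told apart.

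In a myelinating Schwann cell the plasma membrane is wrapped around an axon in many turns, and most cytoplasm is squeezed out between them. Pmp22 and Mbp are proteins of this compact myelin, Pmp22 spanning the membrane and Mbp holding its cytoplasmic faces together. Mag faces the axon from the innermost turn, Prx belongs to a complex that ties the outermost membrane to the basal lamina, and Cnp keeps to the channels where cytoplasm remains. Sox10 sets Schwann cell identity and, with Egr2, switches on the myelin programme. S100b is a calcium-binding protein long used as a Schwann cell marker. Duplication of the human PMP22 gene is a well-known cause of inherited demyelinating neuropathy.

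The libraries held 1215785 reads in annotated genes in replicate 1 and 1549606 in replicate 2. Levels are given in CPM, the reads of a gene per 1000000 of these reads, with each long read counted once and no division by transcript length. The limit that a count of 0 allows was 2.47 CPM for the first library and 1.94 CPM for the second. The libraries differ in make-up: single-exon models took 3.42% of the reads of genes with an annotated spliced transcript in replicate 1 and 11.6% in replicate 2. At an adjusted p under 0.05, 43.3% of the 8692 genes that reached 10 reads differed between the libraries, and the higher level was that of replicate 2 in 17% and of replicate 1 in 26.3%. This balance turned with scaling, to 22.5% and 18.4% with edgeR's TMM and to 23% and 17.7% with DESeq2's size factors. The test, Fisher's exact test on reads with Benjamini-Hochberg adjustment over the 8692 genes, sets 1 library against another and takes in counting error only. The log2 ratio of CPM + 1, replicate 2 over replicate 1, had a median of -0.27 over these genes, which edgeR's TMM scaling moved to -0.02.

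Pmp22 is transcribed from more than 1 start, and its reads divide by first exon, so the starts are shown before the values. The upstream first exon, often called 1A, begins at the annotated gene start on chromosome 11, and the next, 1B, begins 2530 bases further on. As background, transcripts from the upstream start are tied to myelination, and those from the downstream start are found more widely. RefSeq's promoter table for build GRCm38.p6, the assembly of the files' mm10, holds 6 of the 8 members. The 250 bases before each of these starts are given here on the + strand, 5′ to 3′, with every CG dinucleotide in capitals.
Pmp22 upstream start, chr11:63128732-63128981: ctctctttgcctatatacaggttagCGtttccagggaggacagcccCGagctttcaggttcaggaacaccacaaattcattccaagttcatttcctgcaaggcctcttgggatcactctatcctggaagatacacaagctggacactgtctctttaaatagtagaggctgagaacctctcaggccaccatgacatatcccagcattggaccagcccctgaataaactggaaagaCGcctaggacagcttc
Pmp22 downstream start, chr11:63131207-63131456: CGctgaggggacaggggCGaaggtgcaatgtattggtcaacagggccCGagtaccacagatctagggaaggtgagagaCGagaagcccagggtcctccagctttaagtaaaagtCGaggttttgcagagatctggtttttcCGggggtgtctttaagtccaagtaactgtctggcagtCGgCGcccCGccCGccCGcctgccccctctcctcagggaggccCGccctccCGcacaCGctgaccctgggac
The upstream window holds 3 CG dinucleotides at 48.8% G and C, and 71.0% of 32851 promoter windows of the same length hold as many or more. The downstream window holds 14 at 61.2% G and C, and 29.4% of windows reach that number. Over all windows the median was 6. RefSeq lists further Pmp22 starts at 63132569 and 63132803, whose windows are not printed here. Those windows hold 14 and 27 CG dinucleotides at 64.8% and 73.6% G and C. The downstream window ends at RefSeq's start, which lies 55 bases before the first exon of the annotated transcript Pmp22-201 used for the reads.

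The first exons join to 1 of 2 acceptors in the second exon, 3 bases apart. The junctions are printed with 12 exon bases on each outer side, and the 3 bases that the earlier acceptor adds are in capitals.
Pmp22 upstream first exon to the earlier acceptor: accattggtctgCAGgcaccgctcctc
Pmp22 upstream first exon to the later acceptor: accattggtctggcaccgctcctc
Pmp22 downstream first exon to the earlier acceptor: tttgaactgaaaCAGgcaccgctcctc
All of these bases lie ahead of the start codon, which is 42 bases from the earlier acceptor. The 4 annotated Pmp22 transcripts seen in the reads encode 1 and the same protein of 160 residues.

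Pmp22 and Mbp held most reads of the members, and which cells these reads came from was not tested. Together they gave 84.0% of the reads of the 8 members in replicate 1 and 85% in replicate 2. Pmp22 had 105 reads or 86.4 CPM in replicate 1 and 299 reads or 193 CPM in replicate 2, a mean of 140 ± 75.4 CPM (SD, n = 2). It ranked 1157th and 573rd among detected genes. Mbp followed with 47 reads or 38.7 CPM and 109 reads or 70.3 CPM, a mean of 54.5 ± 22.4 CPM (SD, n = 2). The ratio of Pmp22 to Mbp reads was 2.23 in replicate 1 and 2.74 in replicate 2. The libraries do not overlap between these genes: the lowest Pmp22 level lay above the highest Mbp level, and the lowest Mbp level above both values of Cnp.

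**Figure D1:**
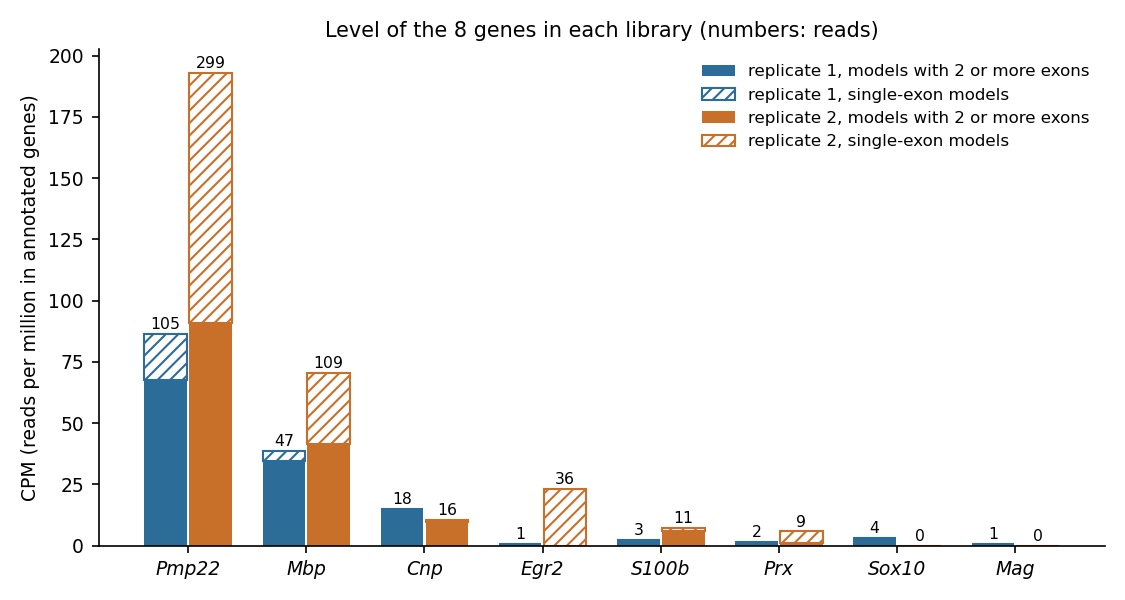
Level of each member in CPM (y axis, from 0) in replicate 1 (blue) and replicate 2 (orange), with solid bars for models of 2 or more exons, hatched bars for single-exon models, and the number of reads above each bar. Pmp22 reached 105 and 299 reads and Mbp 47 and 109, and most of the excess in replicate 2 is hatched.

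The genes of the cytoplasmic channels, the axon face and the outer membrane were lower. Cnp had 18 reads or 14.8 CPM in replicate 1 and 16 reads or 10.3 CPM in replicate 2 (mean 12.6 ± 3.17 CPM, SD, n = 2). For Prx there were 2 reads or 1.65 CPM and 9 reads or 5.81 CPM. Mag gave a single read, in replicate 1. S100b, the calcium-binding marker, had 3 reads or 2.47 CPM and 11 reads or 7.10 CPM. Only Cnp among these 4 stood clear of the level that a count of 0 allows in both libraries.

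The transcription factors were at the edge of detection. Sox10 had 4 reads or 3.29 CPM in replicate 1 and 0 in replicate 2, and all 4 were of the annotated transcript Sox10-201 with 4 exons. Egr2 had 1 read in replicate 1 and 36 in replicate 2, 0.823 and 23.2 CPM. Those 36 reads are on a model past the end of the gene and are treated on their own below. By mean CPM the order was Pmp22, Mbp, Cnp, Egr2, S100b, Prx, Sox10 and Mag. Egr2 overlapped Cnp and every gene after it, and S100b and Prx overlapped each other. The values of Sox10 and of Mag each ran from 0, so neither could be placed against the other.

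All 8 members were detected in replicate 1 and 6 in replicate 2, where Sox10 and Mag had no read. In sum they reached 149 CPM in replicate 1 and 310 CPM in replicate 2, a mean of 229 ± 114 CPM (SD, n = 2). On models with 2 or more exons the sum was 126 and 149 CPM, and on annotated transcripts alone it was 92.1 and 96.8 CPM. Each sum was divided by all reads in annotated genes. Single-exon models took 5.10% of those reads in replicate 1 and 14.1% in replicate 2. With that divisor the excess of replicate 2 was 161 CPM in all reads, 23.2 CPM in models with 2 or more exons and 4.68 CPM on annotated transcripts. The tests on such models below divide by reads of the same kind alone, so their ratios are not on this scale. Of the 661 reads, 384 were on models with 2 or more exons and 262 on annotated transcripts.

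Of 6 members tested, 3 differed between the libraries, all with the higher level in replicate 2, beside backgrounds of 43.3% of all genes in either direction and 17% in that direction. Pmp22 was higher in replicate 2 by a ratio of 2.23 (95% counting interval 1.78 to 2.82, Fisher's exact test, adjusted p = 1.28e-12). Mbp was higher by a ratio of 1.82 (1.28 to 2.62, exact test, adjusted p = 0.00189). Egr2 was higher by 28.2 (4.76 to 1146, exact test, adjusted p = 2.21e-07), but its 36 reads of replicate 2 are on a model past the end of the gene. Cnp had a ratio of 0.697 (0.333 to 1.45, exact test, adjusted p = 0.433), S100b 2.88 (0.760 to 16.1, adjusted p = 0.190) and Prx 3.53 (0.731 to 33.6, adjusted p = 0.214). Sox10 and Mag had fewer than 10 reads and were not tested. The median log2 ratio of the 6 tested members, Egr2 included, was 1.19, beside -0.27 over all genes tested. These calls rest on reads alone. With a coefficient of variation of 0.2 assumed between animals in edgeR's exact test, 1 of the 6 was called (Egr2, adjusted p = 0.000699). That call rests on the model past the end of Egr2. In the same test Pmp22 had an adjusted p of 0.0577 and Mbp one of 0.211. With 0.4 none of the 6 was called (lowest adjusted p = 0.239, 1 member under an unadjusted p of 0.05). Over all genes those settings called 15.5% and 0.092%.

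The differences of Pmp22 and Mbp lay mostly in reads of the last exon. Single-exon models gave 23 of 105 Pmp22 reads in replicate 1, or 21.9% (95% Clopper-Pearson interval 14.4 to 31.0), and 158 of 299 in replicate 2, or 52.8% (47.0 to 58.6). For Mbp they gave 5 of 47 reads, or 10.6% (3.55 to 23.1), and 45 of 109, or 41.3% (31.9 to 51.1). Neither gene is alone in this. Among genes with an annotated spliced transcript and 50 or more reads, the median share was 2.09% over 2270 genes in replicate 1 and 6.59% over 2444 genes in replicate 2, with 6.56% and 13.4% of these genes at a share as high as that of Pmp22 in the same library, and 14.3% and 17.0% at one as high as that of Mbp.

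With models of 2 or more exons alone, the Pmp22 reads numbered 82 and 141 and those of Mbp 42 and 64, in the order of the replicates. Scaled to all reads of such models, the ratio of Pmp22 fell to 1.49 (1.13 to 1.98, Fisher's exact test, adjusted p = 0.0104). That of Mbp fell to 1.32 (0.881 to 2.00, exact test, adjusted p = 0.262). One member of the 4 tested was then called, where 48.3% of 7407 genes were. On annotated transcripts alone, 0 of 4 were called by Fisher's exact test, with 0 under an unadjusted p of 0.05, where 51% of 6461 genes were called, and Pmp22 had an adjusted p of 0.967. Cnp had 18 and 15 spliced reads, S100b 3 and 9, and Prx 2 and 2, so that the higher Prx count of replicate 2 lay in single-exon models.

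**Figure D2:**
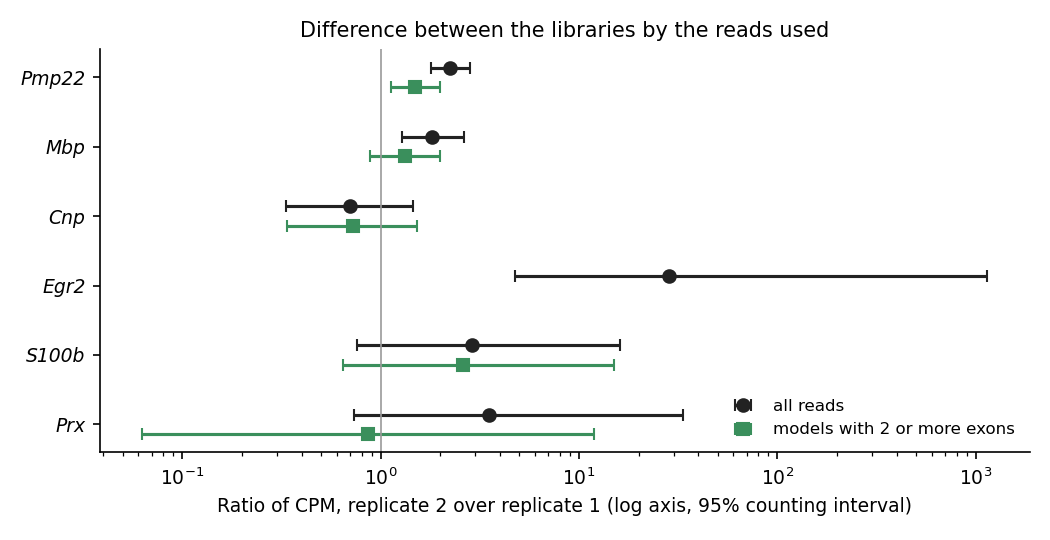
Ratio of CPM in replicate 2 over replicate 1 (x axis, log scale) for the 6 members with reads in both libraries, from all reads (black circles) and from models with 2 or more exons (green squares, scaled to all reads of such models), with 95% counting intervals. The green point lies left of the black one for Pmp22, Mbp, S100b and Prx, and Egr2 has no green point because no spliced Egr2 read was found in replicate 2.

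The last-exon reads of Pmp22 were filed under different models in the libraries. In replicate 2 all 158 formed 1 incomplete model of the whole last exon, chromosome 11, 63158252 to 63159546, on the + strand. In replicate 1 the 23 reads formed a genomic model of 640 bases, 63158907 to 63159546, with the same 3′ end. A genomic model is an unspliced read that matches no annotated chain, and 1 model stands for all reads placed in it, so the 5′ ends of the single reads are not known from these tables. Mbp showed the mirror image of this naming, with 5 reads on an incomplete last-exon model in replicate 1 (chromosome 18, 82584112 to 82585627) and 44 on a genomic model of 1341 bases in replicate 2 (82584287 to 82585627).

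Spliced Pmp22 reads started mostly at the upstream first exon. It opened 46 of 80 spliced reads in replicate 1, or 57.5% (45.9 to 68.5), and 104 of 140 in replicate 2, or 74.3% (66.2 to 81.3), counting models outside the incomplete class, with a mean of 65.9% ± 11.9 (SD, n = 2). The downstream first exon opened 25 reads, or 31.3% (21.3 to 42.6), and 33 reads, or 23.6% (16.8 to 31.5). The remaining first exons gave 2 and 2 reads (Pmp22-203) and 7 and 1 (Pmp22-202). The upstream exon led in both libraries, and its intervals overlapped between them.

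The chain with most spliced Pmp22 reads is not in the annotation. It joins the upstream first exon to the earlier acceptor printed above and runs through 5 exons and 1825 bases, and it took 33 reads in replicate 1 and 75 in replicate 2. Both splice sites of its first intron are annotated, but in different transcripts: Pmp22-204 pairs the upstream exon with the later acceptor and had 12 and 28 reads, and Pmp22-201 pairs the downstream exon with the earlier acceptor and had 24 and 33. Of reads that leave the upstream exon for this second exon, 33 of 45 took the earlier acceptor in replicate 1, or 73.3% (58.1 to 85.4), and 75 of 103 in replicate 2, or 72.8% (63.2 to 81.1). The mean was 73.1% ± 0.366 (SD, n = 2), so the libraries differed by far less than the width of either interval. How well the alignments place a junction to within 3 bases was not tested.

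**Figure D3:**
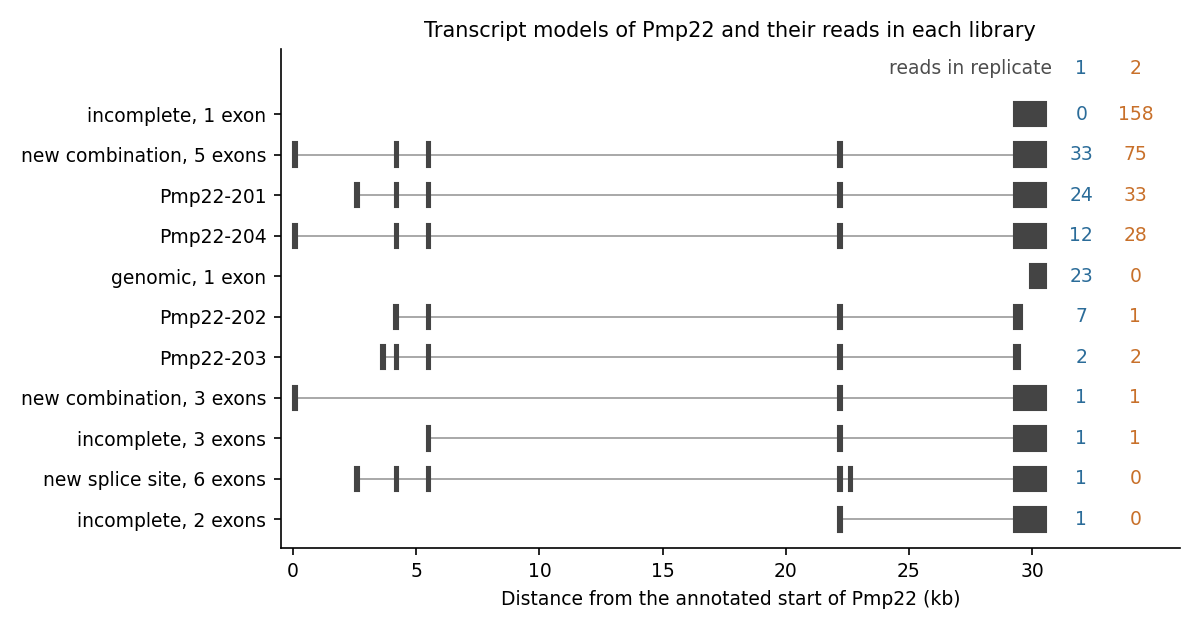
The 11 transcript models of Pmp22, with exons as boxes and introns as lines, placed by distance from the annotated gene start in kb (x axis), and the reads of each in replicate 1 (blue) and replicate 2 (orange). The 5-exon new combination leads among spliced models with 33 and 75 reads, and the single-exon model of the last exon holds 158 reads in replicate 2 and 0 in replicate 1.

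The rest of Pmp22 was uniform along its coding part. The exon at 63134421 to 63134520 was held by 79 of 80 spliced reads that span it in replicate 1 and by 139 of 140 in replicate 2, and the 1 exception in each library was a 3-exon chain that skips it together with the second exon. The exon at 63151119 to 63151259 was held by all 81 and all 141 reads that span it. A chain with a further exon had 1 read in replicate 1, and incomplete chains of 2 or 3 exons had 2 reads and 1.

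Mbp was read almost wholly from the start of the classic Mbp unit. The gene also has a far upstream start that yields the larger golli proteins, and it gave 1 of 41 spliced reads in replicate 1, or 2.44% (0.0617 to 12.9), and 0 of 63 in replicate 2, which allows up to 5.69%. The classic unit yields a set of proteins through 2 optional exons, 1 of 78 bases (chromosome 18, 82561778 to 82561855) and 1 of 123 bases (82578936 to 82579058). The form without either, Mbp-211, encodes 128 residues or 14.2 kDa, and it led in both libraries with 21 of 40 reads, or 52.5% (36.1 to 68.5), and 40 of 63 reads, or 63.5% (50.4 to 75.3), a mean of 58.0% ± 7.77 (SD, n = 2).

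The other classic forms followed without a fixed order. Mbp-212, which holds the 123-base exon and encodes a protein of 18.5 kDa, had 9 reads, or 22.5% (10.8 to 38.5), and 7 reads, or 11.1% (4.59 to 21.6). Mbp-215, which holds the 78-base exon and encodes 17.2 kDa, had 5 reads, or 12.5% (4.19 to 26.8), and 13 reads, or 20.6% (11.5 to 32.7). The form with both, Mbp-209 at 21.5 kDa, had 3 reads in each library, or 7.5% and 4.76%. The order of Mbp-212 and Mbp-215 turned between the libraries, and their intervals overlapped in each.

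**Figure D4:**
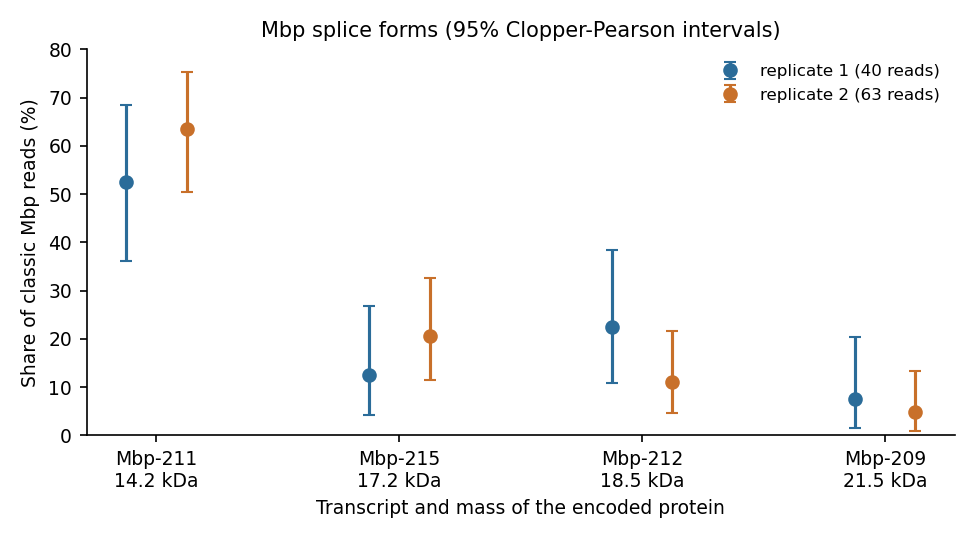
Share of classic Mbp reads in % (y axis, from 0) that each splice form took in replicate 1 (blue, 40 reads) and replicate 2 (orange, 63 reads), with 95% Clopper-Pearson intervals, ordered by the mass of the encoded protein. The 14.2 kDa form lies highest in both libraries, at 52.5% and 63.5%, and the other 3 forms overlap.

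By exon, the 78-base exon was held by 8 of 41 reads in replicate 1, or 19.5%, and by 16 of 63 in replicate 2, or 25.4%. The 123-base exon was held by 13 of 42, or 31.0% (17.6 to 47.1), and 10 of 64, or 15.6% (7.76 to 26.9). The constant exon at 82572825 to 82572926 was in all 41 and all 63. For Pmp22 and Mbp the share of the leading transcript was tested across all genes with 20 or more such reads in each library. The leading Pmp22 chain had 41.3% and 53.6% (Fisher's exact test, adjusted p = 0.721) and Mbp-211 had 51.2% and 63.5% of all Mbp reads outside the incomplete and genomic classes (exact test, adjusted p = 0.952). Neither was called, with 0 of the 2 under an unadjusted p of 0.05, and 2.43% of the 2793 genes tested were.

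Cnp was read mainly as Cnp-201, which encodes 420 residues. It had 16 of 18 reads in replicate 1 and 10 of 16 in replicate 2. Cnp-204, which begins inside the first intron of Cnp-201, had 2 and 3 reads. By first exon, the annotated gene start opened 16 of 18 and 11 of 14 spliced reads outside the incomplete class, a mean of 83.7% ± 7.30 (SD, n = 2). In replicate 2, 1 read each lay on an incomplete model, a single-exon model and a chain that runs on to 100591729, the annotated end of the gene on chromosome 11. Dnajc7 lies on the opposite strand over that far end. The Cnp reads of replicate 1 were all filed under transcripts that end at 100581728, short of it.

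Prx, Mag and S100b gave too few reads to describe isoform use. Prx makes a long and a short periaxin by keeping or splicing an intron, and each library held 1 read of Prx-203, whose coding part ends after 148 residues, while Prx-202, with 1391 residues, had 1 read in replicate 1. Of the 9 Prx reads of replicate 2, 6 formed a single-exon model in the last exon, chromosome 7, 27518103 to 27520041. S100b-201 had 3 reads in replicate 1 and 9 in replicate 2, with 2 more of replicate 2 on a single-exon model of 145 bases. The single Mag read had 12 exons and a splice site outside the annotation.

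Egr2 was the member whose count rested on a model past the end of the gene. Its annotated span is chromosome 10, 67535475 to 67542188, on the + strand. The 36 reads of replicate 2 form 1 single-exon genomic model from 67542188 to 67547498, which shares 1 base with the gene and runs 5310 bases past its end. The only read on an annotated Egr2 transcript was the 1 read of Egr2-201 in replicate 1. Over the same ground, 2988 bases of the model lie opposite Ado, a single-exon gene on the - strand at 67544511 to 67548955, which had 31 reads in replicate 1 and 17 in replicate 2. A 7-exon model of Gm32364 on the + strand, with 1 read in replicate 2, begins at 67547498, the last base of the Egr2 model. Replicate 1 holds 8 reads on an unannotated + strand model, 67544511 to 67547498, with the same 3′ end as the Egr2 model and filed under no annotated gene. The use of strand in read assignment is not stated in the labels or files, so which gene the 36 reads and the 8 reads belong to cannot be told. All positions here are those of models, and where the single reads lie is not known. A genomic model of Dnajc7 in replicate 2, for example, holds 27 reads but is 1 base long.

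**Figure D5:**
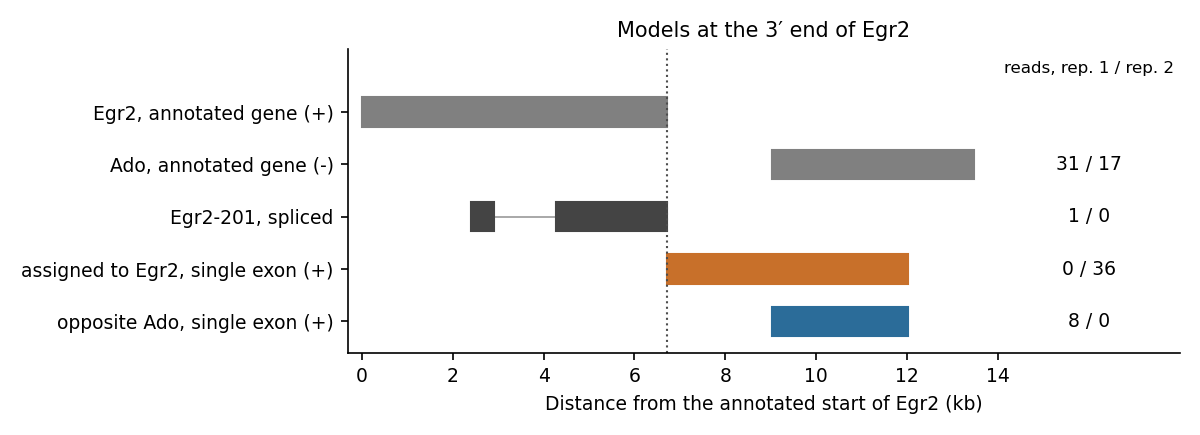
Models at the 3′ end of Egr2 by distance from the annotated start of the gene in kb (x axis), with annotated genes in grey, the dotted line at the end of Egr2, and the reads in replicate 1 and replicate 2 at the right. The model with 36 reads in replicate 2 begins at the dotted line and shares its right end with the 8-read model of replicate 1.

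By the rule that a model must share a base with the gene span, 0 of 181 member reads in replicate 1 and 0 of 480 in replicate 2 lay outside, shares of up to 2.02% and 0.766%, because of that 1 shared base. With the span applied in this way to all genes, 43.3% of 8676 genes were called and the same number of members, 3 of 6. Required to lie inside as a whole, 0 of 181 reads and 36 of 480 were outside, or 7.5% (5.31 to 10.2) in replicate 2, beside 1.98% and 0.987% over all annotated genes. All 36 are those of Egr2. Without them 2 of 5 tested members were called, Pmp22 and Mbp, where 43.5% of 8570 genes were, and Egr2 was left with 1 read in 1 library. The gene span was taken from the annotation, since the deposited models of replicate 2 stretch the Egr2 gene line by the same 5310 bases.

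Other genes of peripheral myelin were read beside the members, from Mpp6 and Art3, which lay above Mbp in both libraries and above Pmp22 in replicate 1, down to no read. The 15 genes of that list summed to 269 and 248 CPM in replicates 1 and 2 (259 ± 14.5 CPM, SD, n = 2), and 10 had reads in both libraries. Mpp6, a scaffold protein found in Schwann cell membranes, had 118 and 112 CPM. Art3, a member of the ADP-ribosyltransferase family also found in muscle, had 109 and 77.4 CPM. Cd9, a tetraspanin of many cell types, had 24.7 and 35.5 CPM. Mpp6, Art3 and Cd9 held most of the sum of the list, and which cells their reads came from was not tested. A further 10 detected genes had 1 to 8 reads over both libraries, and Gldn had none. Of 4 tested, 1 was higher in replicate 1 (Art3, Fisher's exact test, adjusted p = 0.0179), beside 26.3% of all genes. Higher in replicate 2 were 0, beside 17% of all genes, and 3 were not called. The median log2 ratio of the 4 was 0.14. On all reads the members' sums were 149 and 310 CPM, with 36 of the reads of replicate 2 on the model past the end of Egr2. On models with 2 or more exons they were 126 and 149 CPM.

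Over 19 regulators and receptors of Schwann cells the sums were 182 and 75.5 CPM in replicates 1 and 2, and 5 of the genes had no read (Pou3f2, Adgrg6, Sox2, Foxd3 and Tfap2a). Dag1, the laminin receptor dystroglycan shared with muscle, had 89.7 and 27.1 CPM, and the immediate early factor Jun 46.9 and 20.0 CPM. The Egr corepressor Nab1 had 15.6 and 5.16 CPM and the transcription factor Yy1 5.76 and 7.10 CPM. Of 6 tested, 4 were higher in replicate 1 (Dag1, Jun, Nab1 and Lama2, the last named after its value was seen) and 0 in replicate 2, beside 26.3% and 17% of all genes, with a median log2 ratio of -1.31. The median of the 6 tested members on all reads, 1.19, had the opposite sign. Sox10 and Mag, with reads in replicate 1 alone, are not part of it. On models with 2 or more exons the median was -2.21 over 2 genes of this list and 0.48 over 4 members. On annotated transcripts alone that of 4 members was 0.15.

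Markers of other cells were read beside the members. The 8 oligodendrocyte genes, among them Mog and Olig2, had 0 reads in both libraries. Neuronal and axonal genes had 2 reads in replicate 1 and 10 in replicate 2 over 10 genes, led by Stmn2 with 0 and 5, and melanocyte genes 1 read and 0. Genes of non-myelinating and immature Schwann cells summed to 24.7 and 10.3 CPM, led by Matn2 at 16.5 and 5.81 CPM and Ncam1 at 5.76 and 3.23 CPM, with Ngfr and Gfap at 0. Perineurial genes summed to 31.3 and 9.03 CPM, of which Klf4 made 23.9 and 7.74. Fibroblast genes summed to 4593 and 923 CPM, with 4 of 6 called higher in replicate 1, beside 26.3% of all genes. Endothelial genes summed to 140 and 223 CPM, but Fabp4 alone had 62.5 and 176 CPM and the other 5 genes summed to 77.3 and 47.1 CPM, with a median log2 ratio of -0.69 over the 6 and 1 called higher in each library. The 6 skeletal muscle genes summed to 358467 and 250499 CPM, but Atp2a1 had 151516 and 23536 CPM and the other 5 summed to 206951 and 226963 CPM, with a median log2 ratio of -0.05 over the 6, 2 called higher in replicate 2 and 3 in replicate 1. Over all genes 26.3% were called higher in replicate 1 and 17% in replicate 2. Fabp4 and Atp2a1 were singled out after their values were seen. The part that tissue make-up plays in the difference of the members was not tested.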

How the data were processed

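Long-read RNA-seq of 2 gastrocnemius libraries was analysed from 1 table of transcript models and 1 annotation per library. The values are whole read counts per transcript model, as deposited by the authors and not normalised; per the file headers, the assembly is mm10, the annotation GENCODE M21, and the classes are those of TALON. Neither aligner nor read filters are named in the labels or files. The 2 libraries were processed separately, so unannotated models were matched by exact intron chain, or by position for single exons.

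Models named for the 8 members were summed per gene. Gene spans are those of M21. Libraries were compared by two-sided Fisher exact tests (SciPy 1.17.1) on genes with 10 or more reads, with Benjamini-Hochberg adjustment over all of them and a threshold of 0.05, and log2 ratios used a pseudocount of 1 CPM. The tests compare 2 libraries of 1 group, and p-values, limits (3 counts) and 95% intervals cover counting error only, since reads of an amplified library are not independent molecules. Shares carry Clopper-Pearson intervals. TMM and exact tests with an assumed coefficient of variation used edgeR 4.0.16, and size factors DESeq2 1.42.0. The gene test was tested on simulated data. All members are named, as are up to 4 genes of each other list by mean CPM, genes at 0 by count or name, and member models with 3 or more reads. A gene that meets this rule is not reported here. The members and lists were chosen with earlier results of these data known.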

Additional observations from a re-analysis of the deposited data

Results flagged for a closer look

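Reads that no gene count used were seen opposite or beside 2 members, above the 3 reads that a count of 0 allows. Opposite Pmp22, unannotated models on the - strand held 18 reads in replicate 2. Of these, 17 were on a model at chromosome 11, 63158566 to 63158906, within the last exon, and 1 on a model at 63146644 to 63148027. Replicate 1 held 1 read there, at 63158566 to 63158907. The end of that model in replicate 1 is the first base of the single-exon Pmp22 model of the same library. In both libraries the model within the last exon starts at the annotated end of Pmp22-202, 63158566. Where its single reads lie is not known. The use of strand in read assignment is not stated, so whether these reads come from the strand opposite Pmp22 cannot be told. Beyond Egr2, an unannotated model on the + strand, opposite Ado, held 8 reads in replicate 1. Opposite Prx there was 1 read in replicate 2, and for the other members there was none in either library.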

How the results depend on the processing

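The count of members called between the libraries, 3 of 6, stayed at 3 under TMM and DESeq2 scaling, without a filter on reads, with 20 or more reads, with models of 2 or more reads and with a pseudocount of 0.1. Over all genes, 43.3% were called in the main test, 3553 of 8692 with TMM and 3535 of 8692 with DESeq2 size factors. Without a filter 3488 of 15622 genes were called, and with 20 or more reads 3530 of 6670. Models of 2 or more reads gave 3677 of 7769. The member count was 1 of 4 without incomplete and genomic models, beside 3558 of 7351 genes. With models of 2 or more exons it was 1 of 4, beside 48.3% of genes. With a coefficient of variation of 0.2 it was 1 of 6, beside 15.5%, and with 0.4 it was 0 of 6, beside 0.092%. On annotated transcripts alone it was 0 of 4, beside 51%. Inside the gene span the member count was 2 of 5 with whole models inside, beside 43.5% of genes. With the coefficient of 0.4 there it was 0 of 6, beside 6 of 8676 genes. No member turned its direction under any setting in which it could be tested. Pmp22 lost its call in 3 of 12 settings, Mbp in 5 of 12 and Egr2 in 1 of 8. Egr2 has fewer settings because those that drop its model past the gene end left it too few reads to test. These were annotated transcripts alone, no incomplete or genomic models, models of 2 or more exons, and over 50% of bases inside the gene span. The summed level moved from 229 to 94.5 CPM on annotated transcripts alone, and without replicate 1 or replicate 2 it was 310 and 149 CPM. The share outside the span moved from 0% to 3.75% (mean of the libraries) when whole models had to lie inside, and likewise when over 50% of bases had to. With all classes, 1 leading transcript share was called, that of Pmp22, because the last-exon model then leads. That model held 0 of 105 reads in replicate 1 and 158 of 299 in replicate 2. The 23 last-exon reads of replicate 1 were filed under another model, so this call cannot be read as a change of transcript. The 50% rule and the sum over models of 2 or more exons were chosen after the data were seen. Depth limits Mag, Sox10, Prx and S100b, with 1 to 14 reads over both libraries, and Egr2, with 1 read on an annotated transcript.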
